A study of Mus musculus with 10 samples.

Results

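Collagen chain genes encode the polypeptides that wind into the triple helices of the extracellular matrix. They were taken as every row whose gene symbol had the form Col, a type number, the letter a and a chain number. This rule found 43 of the 19456 genes listed in at least 1 library. The members were sorted by the structure their proteins build: 11 fibrillar chains, 6 basement membrane chains, 6 beaded filament chains, 1 anchoring fibril chain, 3 network-forming short chains, 9 FACIT chains (fibril-associated collagens with interrupted triple helices), 2 multiplexins, 3 transmembrane chains and 2 others.

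The study sequenced poly-A RNA of intestinal tissue from C57BL/6 mice on a BGISEQ-500 instrument. It used 2 TG DSS libraries, 2 WT DSS libraries, 3 TG untreated libraries and 3 WT untreated libraries. TG mice were transgenic animals overexpressing ITGB6, the beta subunit of the integrin that activates latent TGF-beta, and WT mice were wild type. DSS libraries came from mice given 2.5% dextran sulfate sodium, a colitis-inducing polymer, by mouth, and untreated libraries from mice without it. The promoter driving the transgene, the age of the mice, the length of the DSS course and the intestinal segment are not given in the sources used here. Nor is it stated that each library is a different animal, and the spread behind every p-value below may be technical.

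Fibrillar collagens (types I, III and V here) form the tensile fibres of the intestinal lamina propria and submucosa and are made mainly by fibroblasts. Type IV collagen forms the sheet under the epithelium, type VI forms beaded filaments around cells, type VII anchors that sheet to the stroma, and FACIT collagens coat fibril surfaces. New chains are hydroxylated and folded in the endoplasmic reticulum, trimmed at their ends after secretion and then crosslinked. TGF-beta is a well known inducer of fibrillar collagen genes in fibroblasts.

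Each library held 15393859 to 18284704 expected counts over 16391 to 16949 listed genes. Human ITGB6, the transgene, stood at 2201 to 2453 CPM in TG DSS libraries, 0.709 to 1.13 CPM in WT DSS libraries, 3632 to 3913 CPM in TG untreated libraries and 0.117 to 0.123 CPM in WT untreated libraries, where CPM is the expected count divided by the TMM-scaled depth. Epithelial markers dominated, with 7 markers summing to 14110 to 19770 CPM. The 6 smooth muscle markers summed to 6.535 to 9.78 CPM, mostly Tagln at 5.83 to 8.20 CPM, with Myh11 at 0 to 0.308 CPM. The 6 endothelial markers found summed to 2.54 to 9.99 CPM, with Vwf at 1.52 to 5.13 CPM and Cdh5 at 0 to 0.124 CPM. The 4 pericyte markers found summed to 8.75 to 22.1 CPM. Xist, transcribed from the inactive X chromosome, read 307 to 739 CPM in the 4 DSS libraries and 0 to 0.417 CPM in the 6 untreated libraries. Kdm5d, a Y-linked gene, read 0 CPM in the DSS libraries and 26.6 to 44.2 CPM in the untreated libraries. An effect of DSS therefore cannot be told apart from one of sex. The library TG untreated 1 stood apart from the other 2 of its group, with 8.94 CPM of the leukocyte gene Ptprc against 56.9 and 79.5 CPM and 14.2 CPM of the Y-linked gene Ddx3y against 43.7 and 43.9 CPM, and results that rest on it are given with and without it.

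Collagen mRNA was scarce in this tissue and concentrated in a handful of genes. On the FPKM scale, which corrects for transcript length, 24 of the 43 genes averaged under 0.1 FPKM over the 10 libraries, 14 averaged 0.1 to 1 FPKM and 5 averaged 1 FPKM or more. Those 5 were the type III chain Col3a1 at 2.78 FPKM, the FACIT chain Col16a1 at 2.58 FPKM, the type I chains Col1a2 at 1.77 FPKM and Col1a1 at 1.47 FPKM, and the short chain Col8a1 at 1.265 FPKM. In all, 26 of the 43 were listed in every library, and each library listed between 32 and 37 of them. The filter on low counts kept 21 for testing, of which the scarcest had 66 counts over all libraries. The other 22 had at most 55 counts each, and 8 of them at most 10.

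The summed level of all 43 genes was 8.49 and 7.39 FPKM in TG DSS libraries, 11.3 and 7.91 FPKM in WT DSS libraries, 13.4, 28.5 and 27.4 FPKM in TG untreated libraries, and 12.4, 12.8 and 16.6 FPKM in WT untreated libraries. TG untreated 2 and 3 stood above the rest, and TG untreated 1 lay within the range of WT untreated libraries. Nearly all of the excess was fibrillar. The 11 fibrillar genes summed to 2.39 and 2.62 FPKM in TG DSS libraries, 2.80 and 2.90 FPKM in WT DSS libraries, 6.81, 18.4 and 18.2 FPKM in TG untreated libraries, and 2.99, 3.51 and 6.01 FPKM in WT untreated libraries. The 3 TG untreated sums lay above all others, and the 4 DSS sums below all untreated ones.

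The other classes did not follow that order. FACIT genes, mostly Col16a1, summed to 2.80 and 2.15 FPKM in TG DSS libraries, 4.02 and 2.22 FPKM in WT DSS libraries, 3.58, 3.70 and 3.64 FPKM in TG untreated libraries, and 4.66, 3.88 and 5.16 FPKM in WT untreated libraries, so that the WT untreated mean was the highest and its range overlapped that of WT DSS libraries. Basement membrane genes stayed between 0.26 and 0.61 FPKM in all 10 libraries, with ranges that overlapped between the 2 treatments in each genotype. Beaded filament genes summed to 1.21 and 1.02 FPKM in TG DSS libraries, 1.24 and 0.77 FPKM in WT DSS libraries, 1.43, 3.18 and 2.67 FPKM in TG untreated libraries, and 1.24, 1.81 and 1.29 FPKM in WT untreated libraries, with TG untreated 2 and 3 the highest.

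**Figure D1:**
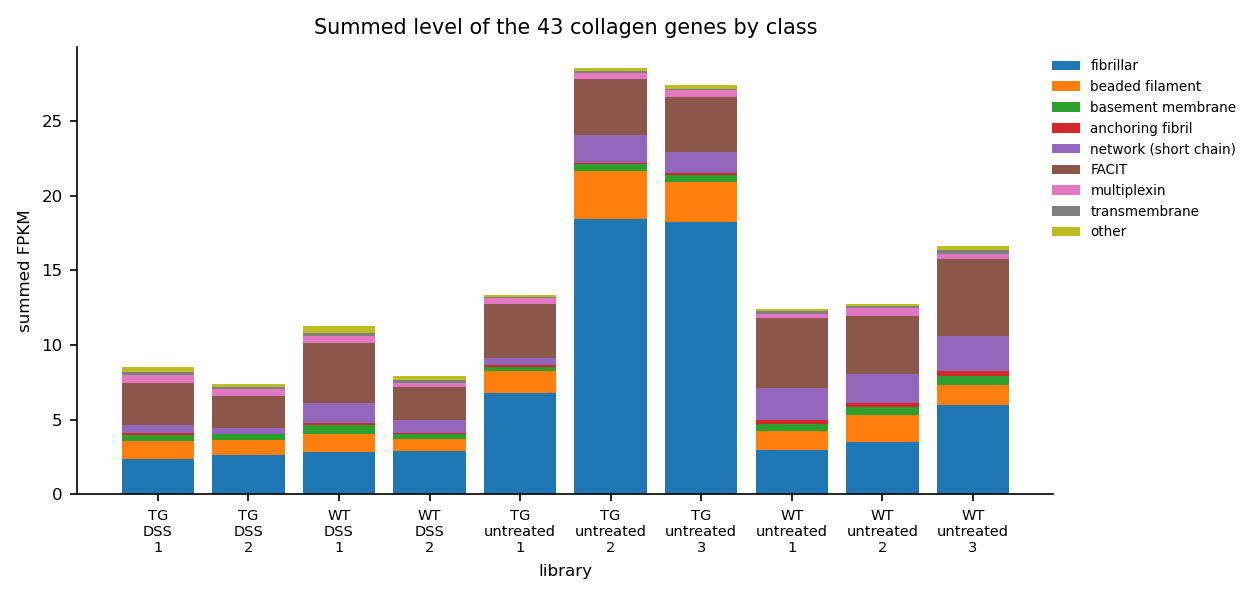
Summed FPKM of the 43 collagen genes in each of the 10 libraries, stacked by collagen class, with 1 bar per library. Fibrillar genes reach 18.4 and 18.2 FPKM in TG untreated libraries 2 and 3 and stay between 2.39 and 6.81 FPKM in the other 8.

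Fibrillar chains were higher in TG than in WT intestine without DSS. Of the 21 tested collagen genes, 6 were higher in TG untreated libraries by edgeR's quasi-likelihood test at a Benjamini-Hochberg adjusted p under 0.05, and 0 were lower. Over all 14072 genes tested, 2.26% were higher and 1.44% lower, or 3.70% in either direction. The 6 were Col1a1, Col1a2, Col3a1, Col5a1 and Col5a2, which is 5 of the 6 tested fibrillar genes, and the type VI chain Col6a3. The median log2 fold change was 0.39 over the 21 tested collagen genes and -0.02 over all genes tested, and 12 of the 21 were above 0.

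Col1a1 (mouse GRCm38 chromosome 11, 94936224 to 94953042), the more abundant chain of type I collagen, read 2.29 and 2.75 CPM in TG DSS libraries, 2.60 and 3.29 CPM in WT DSS libraries, 11.0, 21.03 and 28.4 CPM in TG untreated libraries, and 4.05, 4.58 and 8.80 CPM in WT untreated libraries. Every TG untreated value lay above every WT untreated value, and all 4 DSS values lay below both. Its means without DSS were 20.1 ± 8.73 CPM in TG and 5.81 ± 2.60 CPM in WT (SD, n = 3 each), a log2 fold change of 1.79 ± 0.37 (SE) with an edgeR adjusted p of 0.029. Col1a2 (chromosome 6, 4505618 to 4541543), the partner chain in the type I trimer, read 2.69 and 3.10 CPM in TG DSS libraries, 3.13 and 2.59 CPM in WT DSS libraries, 11.3, 27.0 and 27.7 CPM in TG untreated libraries, and 4.16, 3.45 and 8.12 CPM in WT untreated libraries. It showed the same layout, and the log2 fold change without DSS was 2.07 ± 0.38, the lowest adjusted p of the collagen genes in this contrast at 0.021 in edgeR.

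Col3a1 (chromosome 1, 45311538 to 45349706) encodes type III collagen, which co-assembles with type I in distensible tissues. It read 7.27 and 7.44 CPM in TG DSS libraries, 7.21 and 8.10 CPM in WT DSS libraries, 13.8, 45.8 and 41.4 CPM in TG untreated libraries, and 5.16, 8.39 and 12.1 CPM in WT untreated libraries. TG untreated 1 lay close to the highest WT untreated library, and the other 2 far above it. The log2 fold change without DSS was 1.98 ± 0.42 (edgeR adjusted p = 0.031).

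Type V chains sit in the core of type I fibrils and set their diameter. Col5a1 (chromosome 2, 27886381 to 28039510) read 0.352 and 0.527 CPM in TG DSS libraries, 0.473 and 0.162 CPM in WT DSS libraries, 1.252, 4.43 and 4.095 CPM in TG untreated libraries, and 0.469, 0.655 and 1.05 CPM in WT untreated libraries. Col5a2 (chromosome 1, 45374331 to 45503282) read 0.527 and 0.878 CPM in TG DSS libraries, 0.886 and 0.540 CPM in WT DSS libraries, 1.37, 3.48 and 2.61 CPM in TG untreated libraries, and 0.352, 0.417 and 0.861 CPM in WT untreated libraries. For both, the 3 TG untreated libraries lay above all others. Without DSS the log2 fold change was 2.17 ± 0.52 for Col5a1 (edgeR adjusted p = 0.049) and 2.19 ± 0.46 for Col5a2 (adjusted p = 0.031). Col5a2 and Col3a1 are neighbours on chromosome 1, with 24625 bases between them.

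Col11a2, the remaining tested fibrillar gene, is known from cartilage. It read 1.13 to 2.42 CPM in TG untreated libraries and 1.54 to 2.29 CPM in WT untreated libraries, ranges that overlapped, and its log2 fold change was -0.02 ± 0.33 (95% interval -0.82 to 0.79). The 5 fibrillar genes that were not tested, Col2a1, Col5a3, Col11a1, Col24a1 and Col27a1, had at most 37 counts each over the 10 libraries.

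Type VI collagen is built from the products of Col6a1, Col6a2 and Col6a3. Col6a3 (chromosome 1, 90766860 to 90844001) read 0.293 and 0.351 CPM in TG DSS libraries, 0.532 and 0.162 CPM in WT DSS libraries, 1.31, 1.83 and 1.55 CPM in TG untreated libraries, and 0.528, 0.238 and 0.185 CPM in WT untreated libraries. The TG untreated values stood clear of the other 7, and the log2 fold change of 2.27 ± 0.46 (edgeR adjusted p = 0.027) rests on 78 counts in TG and 16 counts in WT untreated libraries. Col6a1 read 2.46 and 2.11 CPM in TG DSS libraries, 2.78 and 1.998 CPM in WT DSS libraries, 2.38, 6.56 and 5.21 CPM in TG untreated libraries, and 2.58, 4.34 and 2.21 CPM in WT untreated libraries, so that TG untreated 1 lay within the WT range. Col6a1 and Col6a2 had log2 fold changes of 0.63 ± 0.37 (adjusted p = 0.36) and 0.82 ± 0.32 (adjusted p = 0.19) in edgeR and did not pass. Per length, Col6a3 stood at 0.121 to 0.238 of the Col6a1 level in TG untreated libraries and at 0.024 to 0.089 of it in WT untreated libraries, so the 3 chains did not keep 1 ratio.

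**Figure D2:**
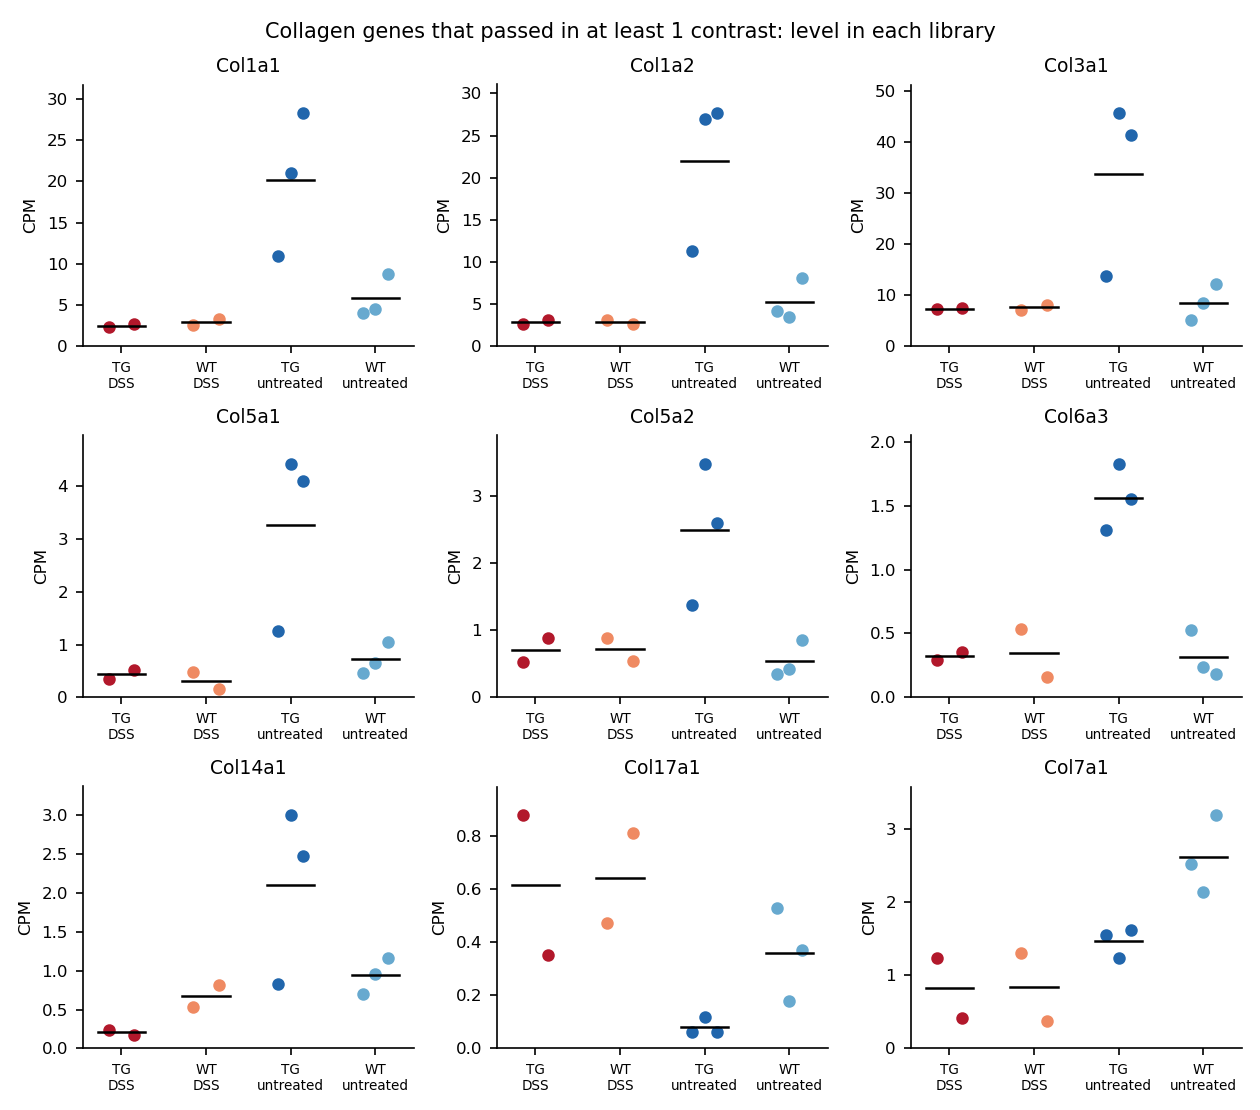
CPM (expected counts over TMM-scaled depth) of the 9 collagen genes that passed in at least 1 contrast, with 1 point per library and a bar at the group mean. For Col1a1, Col1a2, Col3a1, Col5a1, Col5a2 and Col6a3 the 3 TG untreated points lie above all 3 WT untreated points.

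Outside the fibrillar and beaded filament classes no collagen gene passed between TG and WT without DSS. The largest of these differences were -2.06 ± 0.72 on the log2 scale for Col17a1 (edgeR adjusted p = 0.14), the hemidesmosomal collagen of basal epithelial cells, and -1.30 ± 0.39 for Col4a2 (adjusted p = 0.095). Col4a2 encodes a chain of the widespread type IV network. It read 0.938 and 0.586 CPM in TG DSS libraries, 1.65 and 0.918 CPM in WT DSS libraries, 0.417, 0.709 and 0.993 CPM in TG untreated libraries, and 1.41, 1.73 and 2.09 CPM in WT untreated libraries. The untreated groups did not overlap. Its partner Col4a1, which lies head to head with it on chromosome 8 with 85 bases of overlap, had a log2 fold change of -0.09 ± 0.36 (95% interval -0.96 to 0.78). Because the strand setting of the counting is not given in the sources used here, reads in that overlap cannot be assigned to either gene. At an unadjusted p under 0.05, 10 collagen genes differed in edgeR, 8 higher and 2 lower in TG, where 10.7% of all genes tested were higher and 10.1% lower at that threshold.

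This set of 6 rested on the full group of libraries. Without TG untreated 1 the count was 7, with Col14a1 added (log2 fold change 1.54, edgeR adjusted p = 0.023), and Col3a1 reached 2.35 (adjusted p = 0.0016). Without TG untreated 2, TG untreated 3 or WT untreated 2 the count was 0, and without WT untreated 1 or WT untreated 3 it was 1. Calls over all genes tested moved as well, with 318 higher with all libraries and 434 without TG untreated 1. They were 88, 166 and 57 without TG untreated 2, TG untreated 3 and WT untreated 2, and 82 and 34 without WT untreated 1 and WT untreated 3. Leaving out a DSS library altered this contrast only indirectly. It changed the shared estimate of the spread, the genes kept by the low-count filter, the scaling and the set of genes adjusted over. In those fits none of the 21 collagen genes changed sign.

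Some fibroblast markers were also higher in TG untreated libraries. Of 10 fibroblast markers, 2 were higher in TG untreated libraries and 0 lower, where 2.26% of all genes tested were higher and 1.44% lower. The 2 were the matrix gene Dpt (log2 fold change 2.25, edgeR adjusted p = 0.030) and the fibulin gene Fbln1 (1.62, adjusted p = 0.030). Without TG untreated 1, 5 of the 10 were higher, and 0 without TG untreated 2 or 3 or any 1 of the WT untreated libraries. DESeq2 called 2 of the 10 higher and 1 lower. The list's sum was mostly Gsn, an actin-severing protein gene also active in epithelium. The other 9 markers summed to 22.7 and 24.5 CPM in TG DSS libraries, 20.8 and 27.98 CPM in WT DSS libraries, 24.4, 57.2 and 53.5 CPM in TG untreated libraries, and 32.3, 51.8 and 33.5 CPM in WT untreated libraries, so that TG untreated 1 lay below all WT untreated libraries. That order rested on Thy1, a gene of T cells as well as fibroblasts, which read 5.19, 11.5 and 14.4 CPM in TG untreated libraries and 20.5, 36.4 and 18.9 CPM in WT untreated libraries. Without Gsn and Thy1 the remaining 8 summed to 18.1 and 18.3 CPM in TG DSS libraries, 14.6 and 22.6 CPM in WT DSS libraries, 19.2, 45.7 and 39.1 CPM in TG untreated libraries, and 11.8, 15.3 and 14.5 CPM in WT untreated libraries. On that sum all TG untreated libraries lay above all WT untreated ones, but not every member followed. Fbln1, the largest of the 8 in TG untreated 1, read 6.73 to 9.84 CPM in TG and 2.44 to 2.99 CPM in WT untreated libraries. Dpt and Mfap5 did not overlap either. Dcn did, at 3.40 to 21.5 CPM in TG and 5.54 to 10.95 CPM in WT untreated libraries, as did Lum, Pdgfra, Pi16 and Clec3b. The sum without Fbln1 was not taken, so the order of the sums may rest on this 1 gene. In bulk tissue, more cells of a type and more RNA per cell cannot be told apart, and the part of fibroblast numbers in these differences was not tested.

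The promoters of genes that moved together are shown so that their sequences can be set side by side. They are RefSeq sequences of GRCm38.p6, 5′ to 3′, taken upstream of a RefSeq start and ended at the gene's own bound. Capitals mark every match, on either strand, to any of 3 motifs. The first is CCAAT, the core element bound by the factor NF-Y. The next is TATAAA, found at some promoters just upstream of the start of transcription. The last is GGGCGG, known as the GC box and bound by Sp1. Of the genes higher in TG untreated libraries, Col1a2, Col3a1, Col5a1 and Col6a3 are given, and Col17a1 is added because it moved the other way with DSS in TG mice. The windows are Col1a2 at chr6:4505368-4505617 (plus strand), Col3a1 at chr1:45311288-45311537 (plus), Col5a1 at chr2:27886175-27886380 (plus), Col6a3 at chr1:90844002-90844221 (minus) and Col17a1 at chr19:47692043-47692292 (minus).
Col1a2: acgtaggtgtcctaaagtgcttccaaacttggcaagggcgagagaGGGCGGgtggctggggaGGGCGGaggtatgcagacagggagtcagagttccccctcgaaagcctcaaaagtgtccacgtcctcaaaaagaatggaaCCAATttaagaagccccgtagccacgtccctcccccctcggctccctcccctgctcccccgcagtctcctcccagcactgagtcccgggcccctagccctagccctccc
Col3a1: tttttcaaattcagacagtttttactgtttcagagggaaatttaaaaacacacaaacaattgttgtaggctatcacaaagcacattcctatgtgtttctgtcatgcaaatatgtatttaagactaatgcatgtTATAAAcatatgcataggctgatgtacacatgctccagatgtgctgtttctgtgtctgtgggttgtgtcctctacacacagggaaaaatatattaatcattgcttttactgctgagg
Col5a1: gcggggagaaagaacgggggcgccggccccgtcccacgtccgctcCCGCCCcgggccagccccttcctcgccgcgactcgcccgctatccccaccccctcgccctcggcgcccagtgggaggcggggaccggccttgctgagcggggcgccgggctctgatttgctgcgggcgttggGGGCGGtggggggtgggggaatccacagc
Col6a3: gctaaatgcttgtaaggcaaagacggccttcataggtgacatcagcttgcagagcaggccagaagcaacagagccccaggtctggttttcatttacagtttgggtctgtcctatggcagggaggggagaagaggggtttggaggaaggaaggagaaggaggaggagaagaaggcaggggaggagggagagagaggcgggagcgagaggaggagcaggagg
Col17a1: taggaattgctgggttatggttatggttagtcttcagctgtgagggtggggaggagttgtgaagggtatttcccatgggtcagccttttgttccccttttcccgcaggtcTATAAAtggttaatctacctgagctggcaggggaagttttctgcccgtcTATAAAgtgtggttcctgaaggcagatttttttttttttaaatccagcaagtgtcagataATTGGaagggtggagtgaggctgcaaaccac

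None of the 3 motifs occurred in all 4 windows of the genes that moved together. Col1a2 held 1 CCAAT and 2 GC boxes, Col3a1 held 1 TATAAA, Col5a1 held 2 GC boxes and Col6a3 held none of the 3. Col17a1 held 2 TATAAA and 1 CCAAT. Base composition also differed, with 35.2% G and C in the Col3a1 window and 77.7% in the Col5a1 window. Over the 250 bases upstream of 37 RefSeq starts of 34 collagen genes, CCAAT occurred in 35.1%, TATAAA in 10.8% and GGGCGG in 59.5%. Over all 32851 RefSeq windows of that length these shares were 33.8%, 12.4% and 32.7%. These matches describe letters in a window, and no binding was measured.

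After DSS no collagen gene passed between TG and WT. The edgeR count was 0 higher and 0 lower of 21, where 0.178% of all genes tested were higher and 0.00711% lower, or 0.185% in either direction. DESeq2 also called 0 of the collagen genes and gave no adjusted p for 9 of them. Only the FACIT chain Col14a1 had an unadjusted p under 0.05, where 7.2% of all genes tested were higher and 4.02% lower at that threshold. Its difference was a log2 fold change of -1.68 ± 0.75 (edgeR adjusted p = 0.44). Its 2 values were 0.234 and 0.176 CPM in TG DSS libraries and 0.532 and 0.810 CPM in WT DSS libraries. The log2 fold change of Col1a1 was -0.23 ± 0.50, with a 95% interval from -1.46 to 1.01, and that of Col3a1 was -0.06 ± 0.52, from -1.33 to 1.22. These intervals use the 6 residual degrees of freedom of the fit and are wider than the p-values of the test imply. They leave room for Col1a1 to be lower in TG by more than 1 log2 unit. For Col3a1 they leave room for more than 1 log2 unit in either direction. So 2 libraries a group do not show that the genotypes were alike. The highest log2 fold change, 1.03 ± 0.84, was that of the FACIT chain Col9a3 (adjusted p = 0.70).

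In TG mice, 4 of the 6 tested fibrillar collagen genes were lower after DSS than without it. Of the 21 tested collagen genes, 6 were lower and 1 was higher in TG DSS libraries by edgeR, where 2.15% of all genes tested were lower and 3.33% higher, or 5.48% in either direction. As above, DSS here cannot be told apart from sex. The log2 fold change was -2.99 ± 0.46 for Col1a1 (edgeR adjusted p = 0.0052), -2.92 ± 0.47 for Col1a2 (adjusted p = 0.0063), -2.19 ± 0.49 for Col3a1 (adjusted p = 0.029) and -2.87 ± 0.64 for Col5a1 (adjusted p = 0.030). Means of Col1a1 were 2.52 ± 0.33 CPM in TG DSS libraries (SD, n = 2) and 20.1 ± 8.73 CPM in TG untreated libraries (SD, n = 3), a difference of 7.96-fold. For all 4 the TG DSS values lay below every TG untreated value. Col5a2 was also lower in both TG DSS libraries than in every TG untreated library, but its log2 fold change of -1.81 ± 0.51 did not pass (edgeR adjusted p = 0.071).

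Col6a3 fell by 2.25 ± 0.53 on the log2 scale in TG mice (edgeR adjusted p = 0.036). Col14a1, which encodes a FACIT chain that binds fibril surfaces, read 0.234 and 0.176 CPM in TG DSS libraries, 0.532 and 0.810 CPM in WT DSS libraries, 0.835, 3.01 and 2.48 CPM in TG untreated libraries, and 0.704, 0.952 and 1.17 CPM in WT untreated libraries. The 2 TG DSS libraries were the lowest of the 10, and TG untreated 2 and 3 the highest. Its log2 fold change with DSS in TG mice was -3.32 ± 0.64 (edgeR adjusted p = 0.016), the most negative of the collagen genes, and it rests on 7 counts in TG DSS and 105 counts in TG untreated libraries.

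Col17a1 went the other way in TG mice. It read 0.879 and 0.351 CPM in TG DSS libraries, 0.473 and 0.810 CPM in WT DSS libraries, 0.060, 0.118 and 0.062 CPM in TG untreated libraries, and 0.528, 0.179 and 0.369 CPM in WT untreated libraries. The 3 TG untreated libraries were the lowest of the 10, with 4 counts between them against 21 counts in the 2 TG DSS libraries. The log2 fold change was 2.83 ± 0.71 (edgeR adjusted p = 0.047). The call held in 1 of 10 fits that left out a library, the fit without WT untreated 2, and DESeq2 gave an adjusted p of 0.065.

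The number of collagen genes lower after DSS in TG mice depended on single libraries. It was 9 without TG untreated 1, with Col5a2, Col6a1 (log2 fold change -1.36, edgeR adjusted p = 0.029) and Col8a1 (-1.72, adjusted p = 0.0069) added. It was 3 without TG untreated 2 or 3, and 0 without either TG DSS library, where the lone remaining library is assumed to vary like the other groups. Over all genes tested, 5.48% passed with DSS in TG mice and 19.8% in WT mice in the fit of all 10 libraries. In TG mice 303 of all genes were lower in that fit, 903 without TG untreated 1, and 215 and 161 without TG untreated 2 and 3. Of 10 fibroblast markers 0 passed in either direction in TG mice, although all 10 had log2 fold changes below 0, and 6 were lower without TG untreated 1. In WT mice Fbln1 was higher with DSS (log2 fold change 1.65, edgeR adjusted p = 0.012) and Thy1 lower (-2.13, adjusted p = 0.0085), and neither passed without WT DSS 2.

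Markers of other cell types also moved with DSS, where 5.48% of all genes tested passed in TG mice and 19.8% in WT mice. The 4 erythrocyte markers summed to 49.5 to 169 CPM in TG DSS libraries, 8.53 to 9.28 CPM in WT DSS libraries, 320 to 525 CPM in TG untreated libraries and 144 to 259 CPM in WT untreated libraries. Of these 4 genes, 3 were higher in TG than WT mice after DSS by edgeR, where 0.178% of all genes tested were higher. With DSS 3 of the 4 were lower in TG mice and 4 in WT mice. The first count was 3 without TG untreated 1 or TG DSS 2 and 0 in the other 8 fits without a library, the next was 0 without TG DSS 2, 1 without TG untreated 3 and 2 to 3 otherwise, and the last was 3 to 4. Endothelial Vwf was lower with DSS in TG and WT mice and Pecam1 in WT mice, as were the pericyte gene Cspg4 and the smooth muscle gene Des in WT mice, while the 6 endothelial markers found summed to 2.54 to 9.99 CPM over all libraries. The endothelial count in TG mice was 0 without TG untreated 3, TG DSS 1 or TG DSS 2 and 2 without TG untreated 1. In WT mice it was 0 without WT DSS 2 and 1 without any 1 of the WT untreated libraries. Des did not pass without WT untreated 1, TG untreated 2, WT DSS 1 or WT DSS 2, and Cspg4 passed in all 10 such fits. Leukocyte markers summed to 19.97 to 146 CPM, with Csf1r higher with DSS in TG mice and, in WT mice, Itgam higher and Cd3e lower. No leukocyte marker was higher in TG mice without TG untreated 3, TG DSS 1 or TG DSS 2, and 3 were lower there without TG untreated 1. In WT mice 0 were lower without WT untreated 2 or WT DSS 2, 2 were lower without TG untreated 1 or TG untreated 3, and 2 were higher without WT untreated 2 or TG untreated 1. Glial and neuronal markers (0.417 to 1.41 CPM) and mesothelial markers (2.86 to 9.76 CPM) had 0 passing genes in any of the 5 contrasts, and of the epithelial markers only Krt18 passed, higher in TG untreated libraries (log2 fold change 0.54), though not without TG untreated 2 or any 1 of the WT untreated libraries. The part of these cells in the collagen differences was not tested.

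In WT mice the fibrillar genes did not pass with DSS. Of the 21 tested genes 1 was lower and 0 higher in WT DSS libraries by edgeR, where 9.62% of all genes tested were lower and 10.2% higher, or 19.8% in either direction. Col1a1 had a log2 fold change of -0.97 ± 0.45 (edgeR adjusted p = 0.16) with means of 2.95 ± 0.49 CPM in WT DSS libraries (SD, n = 2) and 5.81 ± 2.60 CPM in WT untreated libraries (SD, n = 3). The log2 fold change was -0.87 ± 0.46 for Col1a2 (adjusted p = 0.22) and -0.16 ± 0.47 for Col3a1 (adjusted p = 0.85) in edgeR. The WT DSS values of Col1a1 and Col1a2 lay below all 3 WT untreated values, and those of Col3a1 lay among them.

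The gene that was lower was Col7a1, whose product forms anchoring fibrils. It read 1.23 and 0.410 CPM in TG DSS libraries, 1.30 and 0.378 CPM in WT DSS libraries, 1.55, 1.24 and 1.61 CPM in TG untreated libraries, and 2.52, 2.14 and 3.20 CPM in WT untreated libraries. The WT untreated libraries were the highest of the 10, and the replicates of each DSS group lay apart. Its log2 fold change in WT mice was -1.65 ± 0.52 (edgeR adjusted p = 0.049), and it passed in 4 of 10 fits without a library. It did not pass without any 1 of the WT untreated libraries, TG untreated 2, TG untreated 3 or WT DSS 2. In TG mice it was -0.83 ± 0.53 (adjusted p = 0.43). Col28a1, a von Willebrand factor A domain collagen, read 1.29 and 1.05 CPM in TG DSS libraries, 1.95 and 1.08 CPM in WT DSS libraries, 0.656, 0.886 and 1.05 CPM in TG untreated libraries, and 0.528, 0.595 and 0.861 CPM in WT untreated libraries. WT DSS libraries lay above WT untreated ones. It was at a log2 fold change of 1.18 ± 0.38 in WT mice and narrowly failed (edgeR adjusted p = 0.054). It passed without TG untreated 1 (adjusted p = 0.039).

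**Figure D3:**
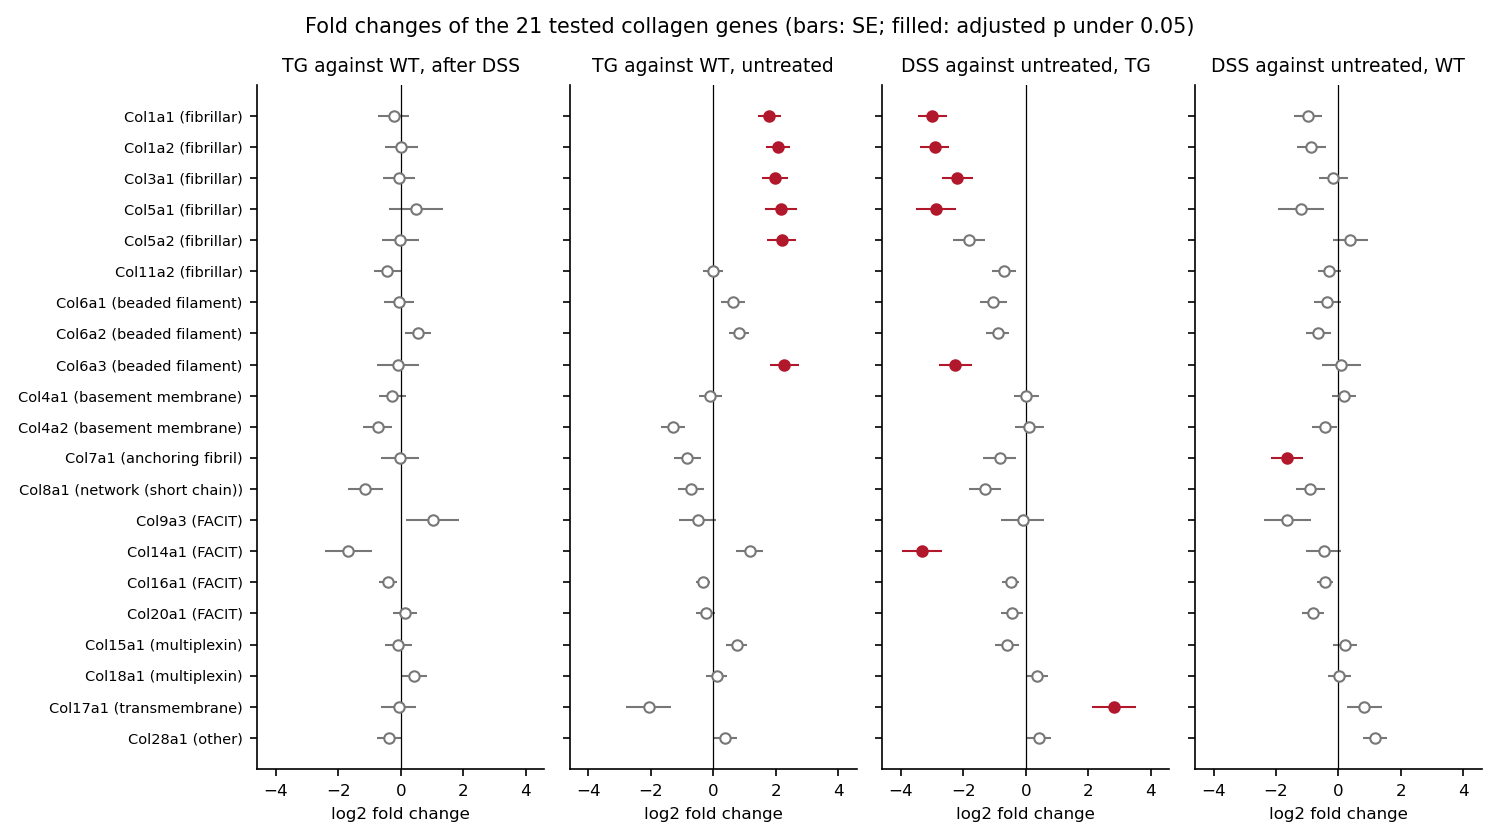
Log2 fold changes with standard errors of the 21 tested collagen genes in 4 contrasts, ordered by collagen class, with filled points at an edgeR adjusted p under 0.05. In TG against WT untreated the filled points are Col1a1, Col1a2, Col3a1, Col5a1, Col5a2 and Col6a3; in DSS against untreated TG they are Col1a1, Col1a2, Col3a1, Col5a1, Col6a3, Col14a1 and Col17a1, and in WT mice Col7a1.

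The genotype by DSS interaction is the log2 difference between DSS and untreated in TG minus that in WT. Since sex split the libraries as DSS did, it cannot be told apart from an interaction of genotype with sex. By edgeR 0 of the 21 collagen genes passed in either direction, where 0.526% of all genes tested were higher and 0.32% lower, or 0.846% in either direction, and 6 were lower at an unadjusted p under 0.05, as were 5.17% of all genes tested. The interaction was -2.02 ± 0.62 for Col1a1 (edgeR adjusted p = 0.21), -2.05 ± 0.64 for Col1a2 (adjusted p = 0.22), -2.04 ± 0.66 for Col3a1 (adjusted p = 0.24) and -2.84 ± 0.87 for Col14a1 (adjusted p = 0.21). DESeq2 called 3 collagen genes lower, Col1a1, Col1a2 and Col3a1 at adjusted p of 0.035, 0.035 and 0.042, where it called 1.34% of all genes tested lower. Without TG untreated 1, edgeR called 4 lower, Col1a1, Col1a2, Col3a1 and Col14a1, where it called 166 of all 14054 genes tested lower, against 45 with all libraries. The contrasts share libraries, so the higher level in TG untreated libraries enters the genotype contrast without DSS, the DSS contrast in TG mice and the interaction alike.

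Per-length ratios were taken within the type I, III and V chains, with no test. The Col3a1 level was 2.89 to 3.40 times that of Col1a1 in TG DSS libraries, 2.63 to 2.96 times in WT DSS libraries, 1.34 to 2.33 times in TG untreated libraries and 1.36 to 1.96 times in WT untreated libraries. The 4 DSS libraries therefore lay above all 6 untreated ones. The Col5a1 level was 0.471 to 0.524 of Col5a2 in TG DSS libraries, 0.236 to 0.419 in WT DSS libraries, 0.717 to 1.235 in TG untreated libraries and 0.954 to 1.235 in WT untreated libraries, again with no overlap between treatments. In the DSS libraries that ratio rests on 3 to 9 counts of Col5a1 and 9 to 15 counts of Col5a2. Col1a1 and Col1a2 stayed within 0.684 to 1.17 of each other per length in all 10 libraries, with no such split.

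The remaining tested genes passed in none of the 5 contrasts with all libraries. Col16a1, a FACIT chain of connective tissue microfibrils, read 10.5 and 8.67 CPM in TG DSS libraries, 17.0 and 8.37 CPM in WT DSS libraries, 14.8, 13.2 and 12.3 CPM in TG untreated libraries, and 17.8, 14.3 and 18.6 CPM in WT untreated libraries. Its groups overlapped except that both TG DSS libraries lay below every untreated library. Without WT DSS 1 it was lower with DSS in WT mice (log2 fold change -1.01, edgeR adjusted p = 0.015). Col8a1, a short chain of vascular and endothelial matrix, read 3.05 and 1.87 CPM in TG DSS libraries, 6.74 and 4.10 CPM in WT DSS libraries, 2.15, 9.04 and 7.20 CPM in TG untreated libraries, and 10.2, 9.11 and 10.9 CPM in WT untreated libraries. WT untreated libraries were the highest, TG untreated 1 was close to the DSS libraries, and the gene was lower with DSS in WT mice without TG untreated 1 (-0.90, edgeR adjusted p = 0.025) and in a fit of the 2 WT groups alone (adjusted p = 0.037). Col18a1, the multiplexin that carries endostatin, read 2.05 and 1.87 CPM in TG DSS libraries, 1.89 and 1.03 CPM in WT DSS libraries, 1.55, 1.36 and 1.68 CPM in TG untreated libraries, and 1.06, 2.02 and 1.17 CPM in WT untreated libraries. Both TG DSS values lay above the TG untreated ones, and the WT groups overlapped. The others had few counts, with 7 to 17 a library for the multiplexin Col15a1, 14 to 31 for Col4a1, 16 to 76 for Col6a2, and 21 to 57 and 3 to 17 for the FACIT chains Col20a1 and Col9a3. Col20a1 was lower with DSS in WT mice without WT DSS 1 (log2 fold change -1.40, edgeR adjusted p = 0.044).

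Some genes of a list for collagen hydroxylation and folding, which includes the matricellular gene Sparc, were also higher in TG than WT mice without DSS. Over all genes tested, 2.26% were higher and 1.44% lower in TG untreated libraries. Of the 22 listed genes 18 were tested, with a median log2 fold change of 0.38 over the 18. Of these, 0 were lower in TG untreated libraries and 6 were higher. They were the prolyl hydroxylase subunits P4ha1 (log2 fold change 0.96), P4ha2 (1.19) and P4hb (0.55), the collagen chaperone Serpinh1 (1.88), the cyclophilin Ppib (0.56) and the collagen-binding matricellular gene Sparc (1.41), with edgeR adjusted p between 0.021 and 0.044. Serpinh1 read 1.70 and 1.87 CPM in TG DSS libraries, 1.83 and 1.51 CPM in WT DSS libraries, 1.55, 3.43 and 3.04 CPM in TG untreated libraries, and 0.293, 1.13 and 0.738 CPM in WT untreated libraries. The WT untreated libraries were the lowest of the 10. Sparc read 4.92 and 4.74 CPM in TG DSS libraries, 4.43 and 3.83 CPM in WT DSS libraries, 8.88, 20.2 and 17.1 CPM in TG untreated libraries, and 4.05, 6.31 and 6.95 CPM in WT untreated libraries, with the TG untreated group above all others. The count of 6 was 7 without TG untreated 1, and 0 without TG untreated 2, WT untreated 2 or WT untreated 3. It was 1 without WT untreated 1 and 2 without TG untreated 3. P4hb and Ppib are abundant chaperones of the endoplasmic reticulum with clients besides collagen, at 785 to 934 CPM and 223 to 264 CPM in TG untreated libraries and at 541 to 621 CPM and 161 to 172 CPM in WT untreated libraries.

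With DSS 1 of the 18 tested genes of that list passed in each genotype. Over all genes tested, 5.48% passed in TG mice and 19.8% in WT mice. In TG mice only Sparc passed, lower with a log2 fold change of -1.67 (edgeR adjusted p = 0.022), and in WT mice only P4hb, higher with 0.45 (adjusted p = 0.027). Sparc's count of 1 was 0 without TG DSS 1, TG DSS 2, TG untreated 2 or TG untreated 3 and 2 without TG untreated 1, and P4hb's was 0 without any 1 WT library and 3 without TG untreated 1. After DSS 0 of the 18 passed between TG and WT, where 0.185% of all genes tested passed.

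Few genes for later steps of collagen handling passed, and those that did passed with DSS, where 5.48% of all genes passed in TG mice and 19.8% in WT mice. Of 7 tested propeptide-cleaving genes, Bmp1, the procollagen C-proteinase, was lower in WT DSS than WT untreated libraries (log2 fold change -1.56, edgeR adjusted p = 0.0088), as was the meprin Mep1a (-1.31, adjusted p = 0.0016), and 0 passed in TG mice. The count of 2 was 1 without WT DSS 2. Of 5 tested crosslinking genes only Tgm2, a transglutaminase, passed. It was higher with DSS in TG mice (1.53, adjusted p = 0.00056) and in WT mice (1.83, adjusted p = 0.00013) in edgeR, while the lysyl oxidase genes did not pass. Tgm2 read 111 and 113 CPM in TG DSS libraries, 97.0 and 119 CPM in WT DSS libraries, 46.3, 32.8 and 36.9 CPM in TG untreated libraries, and 34.0, 28.5 and 28.2 CPM in WT untreated libraries, with every DSS library above every untreated one.

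Of 5 tested collagen-degrading enzyme genes 2 rose with DSS in each genotype, the gelatinase Mmp9 and the collagenase Mmp13. Over all genes tested, 3.33% were higher with DSS in TG mice and 10.2% in WT mice. Mmp9 read 1.76 and 1.99 CPM in TG DSS libraries, 2.78 and 2.38 CPM in WT DSS libraries, 0.119, 0.472 and 0.248 CPM in TG untreated libraries, and 0.293, 0.417 and 0.123 CPM in WT untreated libraries. The log2 fold change of Mmp9 was 2.71 in TG mice (edgeR adjusted p = 0.010) and 3.17 in WT mice (adjusted p = 0.0020), with no overlap between treatments. Mmp13 had 85 counts in TG DSS libraries and 7 counts in TG untreated libraries, a 17.0-fold difference after scaling to depth (95% exact interval 7.91 to 43.6, counting error only). It had 159 counts in WT DSS libraries and 1 count in WT untreated libraries, a ratio of 216 with an interval from 38.2 to 8570. In TG mice the count of 2 was 0 without TG DSS 1 and 1 without TG DSS 2, and in WT mice it was 3 without TG untreated 1 and 2 in the other 9 such fits.

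Of 7 tested collagen-binding proteoglycans, Prelp was lower with DSS in TG mice (log2 fold change -2.22, edgeR adjusted p = 0.039) and no other passed in any of the 5 contrasts. All 7 had log2 fold changes above 0 in TG against WT untreated libraries, with a median of 0.86 against -0.02 over all genes tested. None of them passed there. Without TG untreated 1, 3 of them passed, where 434 of all 14054 genes tested were higher. Dcn and Lum of this list are also among the fibroblast markers. The count of 1 with DSS in TG mice was 4 without TG untreated 1 and 1 without either WT DSS library, and 0 in the other 7 such fits. Of 8 tested collagen receptors, the integrin subunit Itga2 was higher with DSS in WT mice (0.77, adjusted p = 0.0066 in edgeR) and no other passed in any contrast. Over all genes tested, 2.15% were lower with DSS in TG mice and 10.2% higher in WT mice.

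**Figure D4:**
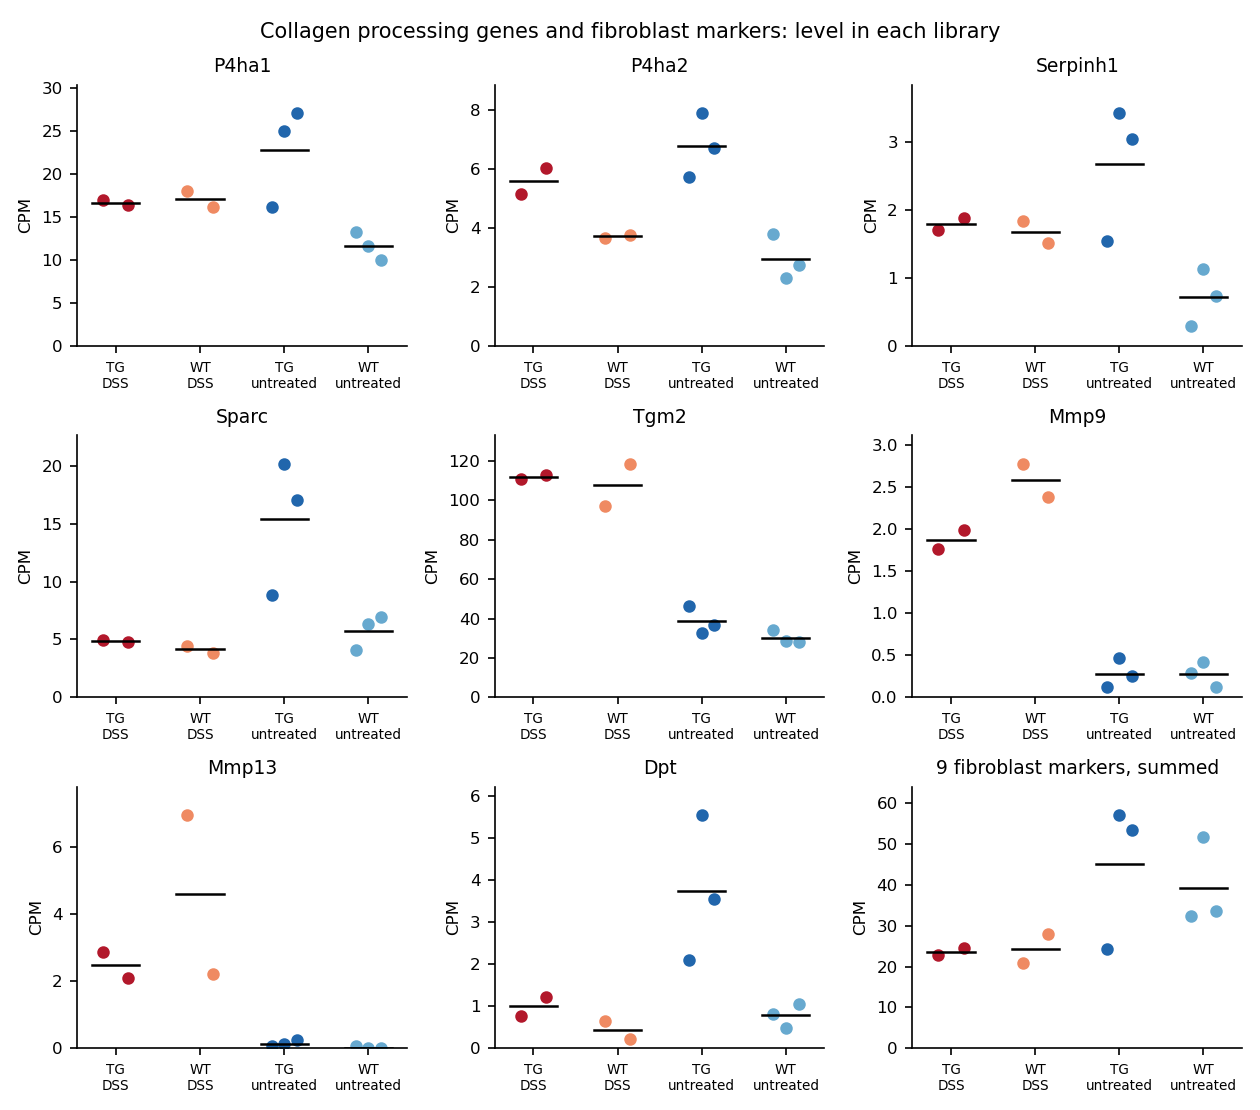
CPM of genes that modify, bind, crosslink or degrade collagen, of the fibroblast marker Dpt and of 9 fibroblast markers summed, with 1 point per library and a bar at the group mean. Tgm2, Mmp9 and Mmp13 are higher in the 4 DSS libraries than in the 6 untreated ones, while Sparc and Dpt are highest in TG untreated libraries.

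The 22 untested collagen genes were at or near the limit of detection. The most counted were the FACIT chain Col12a1 and the transmembrane chain Col25a1, each with 55 counts over 10 libraries. Col12a1 had 8 and 5 counts in TG DSS libraries, 24 and 8 counts in WT DSS libraries, 0, 4 and 2 counts in TG untreated libraries, and 0, 1 and 3 counts in WT untreated libraries, so that all 4 DSS libraries had more than any untreated one. Col25a1 had 0 to 13 counts a library with no such split. The basement membrane chains Col4a3, Col4a4, Col4a5 and Col4a6 had 15 to 44 counts in all, and the cartilage chain Col2a1 was seen in 1 library, with 2 counts. Col12a1 was kept for testing when certain libraries were left out, and was then higher with DSS in WT mice without TG DSS 1, TG DSS 2 or WT DSS 2 (edgeR adjusted p between 0.038 and 0.048). In a fit with no filter on low counts, which tested all 43 genes, Col12a1 was also higher with DSS in WT mice (adjusted p = 0.030), and of the other 21 filtered genes none passed in any contrast. A count of 0 in a library allows up to 3 counts.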

How the data were processed

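Poly-A RNA of 10 mouse intestinal tissue libraries was sequenced. The authors deposited a table per library with an expected count and an FPKM value per gene, per the file headers; HISAT2 2.0.4, Bowtie2 2.2.5, RSEM 1.2.12 and mm10 are named, without role or order, per the submitters' processing notes. Deposited tables list genes from 0.01 FPKM, and missing genes were set to 0. FPKM values were used for levels between genes. Expected counts were rounded, filtered (filterByExpr, count minimum 10, total minimum 15, 14072 genes kept), scaled by TMM and fitted in edgeR 4.0.16 (R 4.3.3) with 1 mean per group over all 10 libraries (residual df 6, biological variation coefficient 0.171). Standard errors are the log2 fold change over the root of F, and p-values were adjusted over all genes tested. The test was checked on simulated counts. Groups come from the labels, and no library duplicated another of its own group (chi-square per gene 9.98 to 65.1). Libraries of different groups were not compared in this way.

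The collagen genes, classes, pathway and marker lists were chosen with earlier results of these data known. Values in every library are given for each collagen gene that passed in at least 1 contrast and for the member of each class with the highest mean FPKM and the others by range and counts; listed pathway genes are named where they passed. List counts without each library and fibroblast sums without Gsn and Thy1 were added after the data were seen. Of the listed genes Mmp1a, Rgs5 and Emcn were not found. Mmp13 ratios use pooled counts over depth. Alternatives were DESeq2 1.42.0, other scalings and filters, fits of the compared groups, a replicate block, limma 3.58.1 on log2(FPKM + 1 or 0.1), robust dispersions and fits without each library. Positions and promoters are RefSeq, GRCm38.p6, and promoter windows were 250 bases before trimming.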

Additional observations from a re-analysis of the deposited data

How the results depend on the processing

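Counts of collagen genes moved by more than 1.5 times under some alternatives. TG against WT untreated gave 6 higher, against 2 with only the groups compared, 3 with the replicate block, 2 with limma on filtered log2(FPKM + 1), 1 on filtered log2(FPKM + 0.1), 1 unfiltered, and 0 to 7 without 1 library. DSS against untreated in TG gave 6 lower, against 3 with only the groups compared, 2, 2 and 3 in the same limma fits, and 0 to 9 without 1 library. The 1 higher there (Col17a1) became 0 with DESeq2, total count scaling, no low-count filter, the 1 CPM filter, only the groups compared, the replicate block and the 3 limma fits, and 0 to 1 without 1 library. DSS against untreated in WT gave 1 lower, against 2 with only the groups compared, 0 with the replicate block and both filtered limma fits, and 0 to 3 without 1 library, and 0 higher, against 1 without the filter and 0 to 1 without 1 library. The interaction gave 0 lower, against 3 with DESeq2 and 0 to 4 without 1 library. The filtered limma fits test only 7 of the collagen genes, and the other causes were not tested.

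Over all genes, TG against WT untreated gave 520 calls, against 1041 with DESeq2, 166 with the replicate block and 58 to 730 without 1 library. After DSS it gave 26, against 258 with DESeq2, 7 with total count scaling, 8 with only the groups compared, 7 with the block, 9, 8 and 12 in the limma fits, and 4 to 145 without 1 library. DSS in TG gave 771, against 1244 with DESeq2, 395 with only the groups compared, 356 with the block and 173 to 1677 without 1 library. DSS in WT gave 2788, against 1614 with the block and 970 to 4112 without 1 library. The interaction gave 119, against 430 with DESeq2, 41 with the block and 24 to 424 without 1 library. Total count scaling turned the split of all calls in TG against WT untreated to 235 higher and 382 lower, against 318 and 202, and in DSS against untreated WT to 1146 and 1700, against 1434 and 1354.

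Whether the replicate numbers pair the samples was not settled. Deviations of same-numbered libraries correlated at -0.29 to 0.206, and at -0.186 to 0.0831 between the untreated groups. In a group of 2 the deviations of the libraries mirror each other, so correlations with DSS groups cannot decide it. No called collagen difference changed sign under any alternative run for it. Of the named differences that did not pass, 4 changed sign. Without 1 library, TG against WT untreated gave log2 values of -0.34 to 0.072 for Col4a1 and -0.28 to 0.23 for Col11a2, and Col3a1 gave -0.14 to 0.030 in TG against WT after DSS and -0.44 to 0.17 with DSS in WT, with 0.18 there under the replicate block. After DSS, 8 of the 21 changed sign without WT DSS 1. The 6 genes of the hydroxylation and folding list, with Sparc among them, that were higher in TG untreated libraries became 0 with the replicate block. Depth was a limit, with as few as 66 counts for a tested collagen gene, and no collagen difference smaller in size than that of Col7a1 (-1.65 on the log2 scale) passed in edgeR's fit of all 10 libraries as reported, while limma on unfiltered log2(FPKM + 1) passed differences as small as 0.17 (Col6a3).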
